A study of Mus musculus with 12 samples.

Results

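Natural killer (NK) cells of a mouse tracheal allograft and of spleen were picked out by their transcripts, and numbered 187 of the 8474 cells of these sources. The whole data set, droplet-based 3' single-cell RNA sequencing of cells from tracheal allograft, native trachea and spleen, held 12630 cells. A cell was kept if Nkg7, Klrb1c, Ncr1, Klrd1 and Gzma together had 5 or more unique molecular identifiers (UMIs, counts of captured transcripts), with 1 or more of them from Klrb1c, Ncr1 or Klrd1. It also had to show 0 UMIs of Cd3d, Cd3e and Cd3g, the signalling chains of the T cell receptor, and under 3 UMIs of the macrophage genes C1qa, C1qb and C1qc. The allograft gave 116 such cells of 3895 (2.98%, 95% interval 2.47 to 3.56) and the spleen 71 of 4579 (1.55%, 1.21 to 1.95). Native trachea gave 4 of 4156 cells, too few to compare.

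Each source was deposited for 4 samples as 1 pooled matrix without a map from cells to samples, so the allograft and the spleen each count as 1 library. The labels call the allograft cells mesenchymal progenitors and the spleen cells splenocytes, and give no strain, donor, sex, age, treatment or time after transplantation. The labels also do not describe cell isolation or a sort, either of which can set the shares above. No difference below could be tested across animals. Values are UMIs summed over the cells of a library and scaled to counts per 1000000 UMIs (CPM). Intervals are 95% intervals for counting error only, and "higher" or "lower" counts of genes mean a ratio of 2-fold or more among genes with 10 or more UMIs in both libraries together. The deposited allograft library held 26503045 UMIs and the spleen library 28318436. The allograft NK cells summed to 553566 UMIs (median 4273 per cell) and the spleen NK cells to 299948 (median 3468). The share of mitochondrial UMIs in the median cell was 4.43% in the allograft and 4.01% in the spleen. The libraries shared 4 barcodes, of which 0 were NK cells.

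NK cells are innate lymphocytes that kill target cells with perforin and granzymes and release interferon gamma, under the control of activating and inhibitory receptors. Circulating NK cells leave tissues along gradients of sphingosine 1-phosphate, whereas tissue-resident cells of the group hold on through integrins and lose the egress receptors. Transforming growth factor beta (TGF-beta) signals through receptor kinases and SMAD proteins, and in mouse NK cells it is known to restrain killing and to favour residency genes. It also restrains their use of nutrients.

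The label was checked on genes that the rule did not use. Eomes, a transcription factor that sets NK cells apart from other innate lymphocytes, had 330 UMIs in 93 allograft cells, against 63 UMIs in 32 spleen cells. The receptor gene Klra8 (Ly49H) had 199 UMIs in 65 allograft cells, against 177 UMIs in 42 spleen cells. Perforin (Prf1) had 343 UMIs in 85 allograft cells, against 199 UMIs in 53 spleen cells. In allograft macrophages (10 or more C1q UMIs) Eomes stood at 1.40 CPM and Klra8 at 49.6 CPM. T cells were not used as a background in this check. Il22, Il17a, Il13 and Il5, cytokine genes of the helper-type innate lymphocytes, were at 0 UMIs in both libraries, while Rora, found in such cells and in some NK-related cells, had 124 UMIs in the allograft against 7 in the spleen. Icos, another of the 11 listed markers of innate lymphocytes, had 41 UMIs in the allograft against 0 in the spleen. These markers together summed to 404.6 against 220.0 CPM (allograft against spleen), with 2 of 4 measured genes higher and 1 lower. Trac, the constant chain of the alpha beta T cell receptor, had 8 UMIs in the allograft against 8 in the spleen, and Cd8a, Cd8b1 and Cd4 were at 0 in the allograft and had 1, 11 and 3 UMIs in the spleen, each in 1 cell. Trbc1, whose germline transcripts are known from NK cells, was abundant, with 364 UMIs in the allograft against 146 in the spleen. Without cells that had any T cell receptor, Cd8 or Cd4 UMI, 9 allograft and 18 spleen cells were left, and the shares above turned round, to 0.231% in the allograft and 0.393% in the spleen. They also turned round without cells that had any C1q, Lyz2 or Apoe UMI, to 0.385% in the allograft and 1.38% in the spleen.

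Some cells that met the rule went against the label. The summed UMIs of Cd74, H2-Aa and H2-Ab1, genes of MHC class II presentation, were 18 or fewer in 115 allograft and 61 spleen cells, but 427 in 1 allograft cell and 76 to 461 in 10 spleen cells. Of these 10 spleen cells, 4 carried B cell markers and 5 carried Flt3 or Siglech, genes of dendritic cells. The counts and medians of the functional gene lists are therefore given for all cells of the rule and again for the 115 and 61 cells with under 20 of these UMIs, called MHC class II-low below, a choice made after seeing the data. In all, 9 markers of B or plasma cells summed to 126 against 1057 CPM over all cells and 126 against 277 CPM over the MHC class II-low cells (allograft against spleen). T cell markers (14 genes) summed to 1275 against 910 CPM over all cells and 1299 against 1057 CPM over the MHC class II-low cells. Of these, the T cell receptor gene Trdc stood at 89.2 against 51.7 CPM in MHC class II-low cells with a Gzma UMI. In those without one it stood at 67.4 against 36.8 CPM. Dendritic cell markers (10 genes) summed to 1375 against 5861 CPM over all cells and 735 against 617 CPM over the MHC class II-low cells. Macrophage and monocyte markers (12 genes) summed to 1004 against 1010.2 CPM over all cells and 678 against 1019 CPM over the MHC class II-low cells. Apoe was seen in 83 allograft and 6 spleen NK cells, and stood in allograft NK cells at 1.87% of its level in allograft macrophages. C1qa, which the rule itself caps, stood at 0.925%. The part of such transcripts in the results was not tested.

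The genes of the rule themselves chose the cells, so their values are a description. Ncr1, the activating receptor NKp46, stood at 84.9 CPM in allograft cells and 947 CPM in spleen cells. Klrb1c (NK1.1) stood at 191 against 560.1 CPM, Klrd1 (CD94) at 332 against 957 CPM, Gzma at 4731 against 9285 CPM and Nkg7, a granule membrane protein, at 1689 against 2587 CPM (allograft against spleen). The 5 genes together had a median of 25.5 UMIs per cell in the allograft and 66 in the spleen. Among MHC class II-low cells with a Gzma UMI, Ncr1 was seen in 29 of 98 allograft and 44 of 49 spleen cells. Klrb1c was seen in 59 and 45 of them. Among those without a Gzma UMI, Ncr1 was seen in 5 of 17 allograft and 11 of 12 spleen cells, and Klrb1c in 8 and 10. At the edge of the rule, 1 allograft and 3 spleen cells sat at the minimum sum of 5 UMIs, and 4 and 7 cells at 4 UMIs stayed outside. In addition, 9 allograft cells and 0 spleen cells had 2 C1q UMIs, while 7 and 0 with 3 stayed outside. A single Cd3 UMI kept out 10 allograft and 6 spleen cells. Cells that failed only by their Cd3 UMIs, of any number, were 100 in the allograft and 178 in the spleen.

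Over all 7445 genes measured, 911 were higher (12.2%) and 1335 lower (17.9%) in allograft NK cells, with a median log2 ratio of -0.13. Over the MHC class II-low cells 6966 genes were measured, of which 12.8% were higher and 15.8% lower, with a median of -0.12. The list medians and counts below are read against these shares. Many of these genes had few UMIs, and their intervals are wide.

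Among the functional gene lists, the genes that respond to TGF-beta had the highest median in allograft NK cells. This rank is a description only, since the lists were chosen with earlier results of these data known. The list also holds Pmepa1, a marker given for these cells, and its median without Pmepa1 was not computed. Of the 24 listed genes 16 were measured, and 12 were higher and 0 lower in the allograft, against 12.2% and 17.9% of all genes. The median log2 ratio was 1.83. Over the MHC class II-low cells it was 1.70, with 11 higher and 1 lower, and 1.56 with sums of 0 UMIs set to 3 UMIs.

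Pmepa1 (chromosome 2, 173224458 to 173276533 in GRCm38, as all positions here), a membrane protein induced by TGF-beta that sequesters SMAD proteins, was a marker given for these cells and is described without weight on its choice. It had 367 UMIs in 93 allograft cells, against 3 UMIs in 2 spleen cells, or 663 CPM in allograft cells and 10.0 CPM in spleen cells (56.9-fold higher, 22.5 to 323). All 3 spleen UMIs came from MHC class II-high cells, since the MHC class II-low cells had 364 against 0 UMIs (at least 46.9-fold higher). After each cell was thinned to 1500 UMIs, Pmepa1 was seen in 60.3% of allograft NK cells and 0% of spleen NK cells (0 of 68, exact interval up to 5.28%), with 3 shallower spleen cells left out. In the same way it was seen in 17.3% of allograft macrophages (median 7228 UMIs) and 2.18% of spleen B cells (median 4815 UMIs). Its level in allograft NK cells exceeded that in allograft macrophages (174 CPM). Without thinning the shares of NK cells were 80.2% and 2.82%.

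The intracellular inhibitors of the pathway followed the same direction. Smad7, which blocks the receptor, had 365 UMIs in 99 allograft cells, against 33 UMIs in 21 spleen cells (659 CPM in allograft cells and 110.0 CPM in spleen cells; 5.91-fold higher, 4.19 to 8.84). Skil, which represses SMAD target genes, had 169 UMIs in 81 allograft cells, against 19 UMIs in 18 spleen cells (4.71-fold higher, 2.99 to 8.20), and its relative Ski had 111 UMIs in the allograft against 15 in the spleen (3.90-fold higher, 2.33 to 7.40). Ldlrad4, which like Pmepa1 holds SMAD proteins away from the receptor, had 27 UMIs in 22 allograft cells, against 0 UMIs in 0 spleen cells (at least 4.88-fold higher). Smad7 was thus seen in most allograft cells and Ldlrad4 in few.

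Among transcriptional regulators of the list, Bhlhe40 had 238 UMIs in the allograft against 30 in the spleen (4.24-fold higher, 2.93 to 6.51). Foxo1 stood at 258 against 70.0 CPM (3.62-fold higher, 2.32 to 6.14) and Tgif1, a SMAD corepressor, at 134 against 36.7 CPM (3.51-fold higher, 1.92 to 7.62). Junb, an AP-1 subunit with many other inducers, stood at 1329.6 against 510.1 CPM (2.60-fold higher, 2.19 to 3.12). The whole list summed to 4662.5 against 1386.9 CPM, so Junb was a large part of it in both libraries. Members below 2-fold were Cd9 (369 against 300.1 CPM), Klf10 (45.2 against 40.0 CPM), Smurf1 (18.1 against 10.0 CPM) and Smurf2 (21.7 against 13.3 CPM). Tgfbi, a secreted matrix protein, had 55 UMIs in 7 allograft cells, against 12 UMIs in 4 spleen cells, but 49 of the allograft UMIs were in 1 cell, and over the MHC class II-low cells the order turned round, with 6 against 8 UMIs.

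Per cell, the whole list took a median of 0.459% of the UMIs of an allograft cell (range 0.0641% to 1.04%) and 0.127% of those of a spleen cell (range 0% to 0.517%). The ranges overlapped, but 115 of 116 allograft cells lay above the spleen median, and 1 of 71 spleen cells above the allograft median. Without Pmepa1 the same counts held, with medians of 0.381% in the allograft and 0.127% in the spleen. Junb, which has many other inducers, stayed in both sums, and the counts without it were not computed. No such counts were made for lists drawn from all genes. Small shifts can also part cells on a summed list. For oxidative phosphorylation, with a median log2 ratio of -0.22, 59 of 71 spleen cells lay above the allograft median.

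The ligand and 1 receptor of the pathway were higher too, but most of its transducers were not. Of 9 measured ligand, receptor, activator and SMAD genes, 3 were higher and 0 lower (median 0.42). The median was 0.38 over the MHC class II-low cells, with 3 of 9 higher and 0 lower. Tgfb1, the ligand that lymphocytes make, had 574 UMIs in 99 allograft cells, against 53 UMIs in 30 spleen cells, or 1037 CPM in allograft cells and 177 CPM in spleen cells (5.82-fold higher, 4.42 to 7.93). The receptor kinase Tgfbr2 stood at 132 against 36.7 CPM (3.46-fold higher, 1.90 to 7.52) and Itgav, an integrin chain that activates latent ligand, at 121 against 43.3 CPM (2.71-fold higher, 1.53 to 5.51). Tgfbr1, the partner receptor of Tgfbr2, stood at 34.3 against 40.0 CPM, and the transducers Smad2, Smad3 and Smad4 at 32.5 against 46.7 CPM, 54.2 against 66.7 CPM and 90.3 against 66.7 CPM, all within 2-fold. Tgfb1 in allograft macrophages stood at 328 CPM, below its level in the NK cells.

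**Figure D1:**
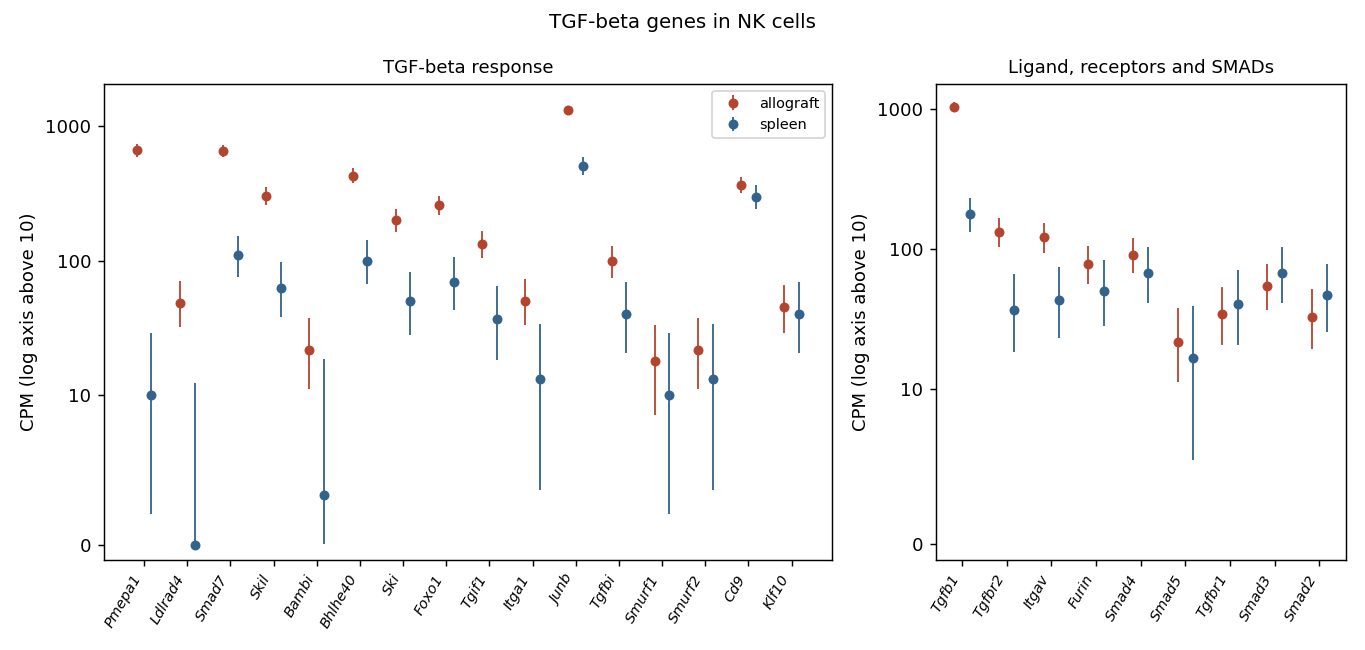
CPM of the measured TGF-beta response genes (left) and of the ligand, receptor and SMAD genes (right) in allograft and spleen NK cells, with exact Poisson 95% intervals for counting error, 1 library per source and an axis that is logarithmic above 10 CPM. Pmepa1 stands at 663 CPM in the allograft and 10.0 CPM in the spleen, while Cd9, Klf10 and the SMAD transducers lie close together.

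Residency genes were mixed, with Litaf, Itga1 and Cd44 among those higher and Cd160, Il7r and Cd69 among those lower. Of 28 listed genes 22 were measured, and 8 were higher and 4 lower in the allograft. The median was 0.40, and 0.41 over the MHC class II-low cells, with 7 higher and 4 lower. Per cell, the list took 0.465% of the UMIs of an allograft cell (range 0.0557% to 1.32%) and 0.232% of those of a spleen cell (range 0.0260% to 1.05%). A clear overlap remained, with 102 of 116 allograft cells lying above the spleen median, and 11 of 71 spleen cells above the allograft median.

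Litaf (chromosome 16, 10959275 to 11066157), an endosomal protein of the residency list, showed the largest ratio, with 231 UMIs in 90 allograft cells, against 6 UMIs in 4 spleen cells (19.3-fold higher, 9.44 to 57.4). Itga1, the collagen-binding integrin chain CD49a that marks resident NK cells, had 28 UMIs in 16 allograft cells, against 4 UMIs in 3 spleen cells (3.43-fold higher, 1.33 to 14.9). Rgs2, a regulator of G protein signals, stood at 807 against 320.1 CPM (2.51-fold higher, 2.02 to 3.18), and the hyaluronan receptor Cd44 at 276 against 127 CPM (2.16-fold higher, 1.52 to 3.20). Runx3, a transcription factor of resident lymphocytes, stood at 598 against 293 CPM (2.03-fold higher, 1.61 to 2.61). The chemokine receptor Cxcr6 had 13 UMIs in the allograft against 3 in the spleen, and Gpr183, a receptor for oxysterols, 29 UMIs in the allograft against 6 in the spleen. Rgs1 and Xcl1, often high in resident cells, came in just below 2-fold, at 1185 against 620.1 CPM and 804 against 440.1 CPM. Over the MHC class II-low cells Runx3 and Cxcr6 were within 2-fold as well (log2 ratios 0.99 and 0.58). Rgs2 turned to a log2 ratio of -0.77 over the 9 allograft and 18 spleen cells without T cell receptor, Cd8 or Cd4 UMIs.

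Other residency genes were lower in the allograft. Cd69, which removes S1pr1 from the surface, had 28 UMIs in 11 allograft cells, against 34 UMIs in 20 spleen cells (2.23-fold lower, 1.32 to 3.84). Cd160, a receptor of type 1 innate lymphocytes, had 9 UMIs in 7 allograft cells, against 68 UMIs in 22 spleen cells (13.3-fold lower, 6.93 to 31.8), and the interleukin 7 receptor Il7r 10 UMIs in 9 allograft cells, against 41 UMIs in 10 spleen cells (7.29-fold lower, 3.73 to 16.9). Among MHC class II-low cells, Il7r had 3 against 2 UMIs (6.86 against 12.9 CPM) in cells with a Gzma UMI. In cells without one (17 allograft and 12 spleen cells) it had 7 against 20 UMIs. Ahr, the aryl hydrocarbon receptor, had 13 UMIs in the allograft against 15 in the spleen, and was within 2-fold over the MHC class II-low cells (log2 ratio -0.52). Itgae, Zfp683 and Cd200r1 had too few UMIs to be measured.

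The genes of tissue egress and circulation were mostly lower in the allograft. Of 21 measured genes 10 were lower and 2 higher, with a median of -0.94. Over the MHC class II-low cells 12 were lower and 2 higher (median -1.11). S1pr5 (chromosome 9, 21242912 to 21248443), the sphingosine 1-phosphate receptor that lets NK cells leave tissue, had 3 UMIs in 3 allograft cells, against 50 UMIs in 30 spleen cells, or 5.42 CPM in allograft cells and 167 CPM in spleen cells (26.6-fold lower, 9.94 to 154). Zeb2, a transcription factor of terminal NK maturation, had 53 UMIs in 31 allograft cells, against 210 UMIs in 59 spleen cells (95.7 CPM in allograft cells and 700.1 CPM in spleen cells; 7.26-fold lower, 5.39 to 10.1). Cx3cr1, the receptor of patrolling cells, had 6 UMIs in the allograft against 27 in the spleen (7.81-fold lower, 3.36 to 24.6).

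Klf2, which drives egress receptors, stood at 372 against 1230.2 CPM (3.30-fold lower, 2.78 to 3.94), and Rasgrp2, which activates integrins of circulating cells, at 28.9 against 183 CPM (6.21-fold lower, 3.58 to 11.9). The integrin chain Itga4 stood at 233 against 763 CPM and Itgam (CD11b), a marker of mature NK cells, at 79.5 against 193 CPM. The exceptions were Ccr7, a chemokine receptor of cells that home to lymph nodes, and S1pr1. Ccr7 had 80 UMIs in 15 allograft cells, against 2 UMIs in 2 spleen cells, with 21 of the allograft UMIs in 1 cell, and S1pr1 had 13 UMIs in the allograft against 3 in the spleen. Per cell, the egress list took 0.264% of the UMIs of an allograft cell (range 0.0628% to 0.858%) and 0.613% of those of a spleen cell (range 0.0955% to 1.63%). Here 7 of 116 allograft cells lay above the spleen median, and 57 of 71 spleen cells above the allograft median.

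**Figure D2:**
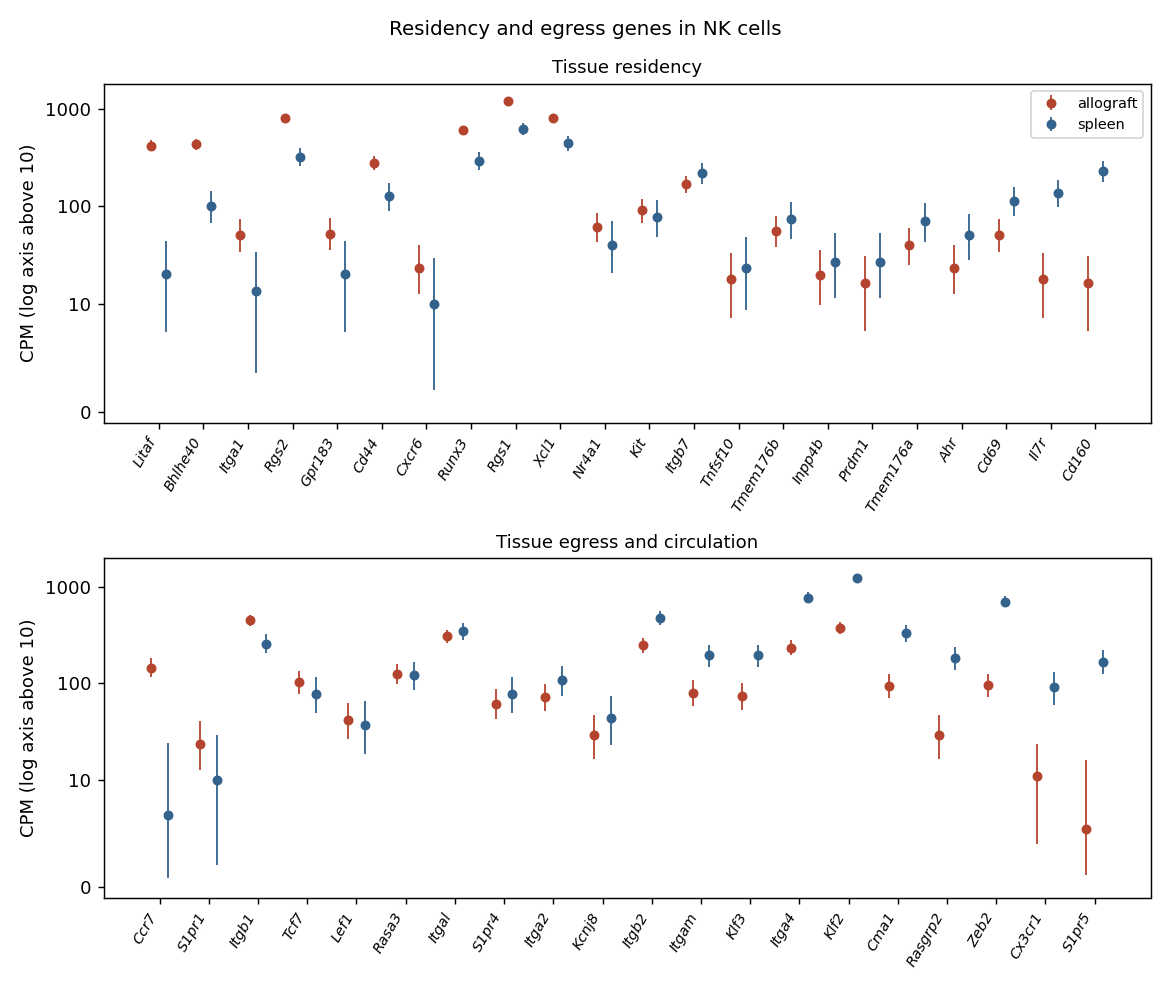
CPM of the measured residency genes (top) and of the measured egress genes but 1 (bottom) in allograft and spleen NK cells, ordered by ratio, with exact Poisson 95% intervals for counting error. Litaf lies highest in the allograft relative to spleen in the upper panel and Cd160 lowest, while in the lower panel S1pr5 stands at 5.42 CPM in the allograft and 167 CPM in the spleen.

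The start sites of 2 residency genes that were higher in the allograft are shown because TGF-beta acts through SMAD proteins, whose binding box is CAGAC on either strand (GTCTG when read on the other). The windows of 300 bases around 1 start site per gene, the first one listed, come from RefSeq on GRCm38.p6. They are chr13:115101915-115102214, minus strand for Itga1 and chr16:10993072-10993371, minus strand for Litaf, each written along the gene with the box in capitals. The Litaf window lies inside the gene span given above, away from its outer end.
Itga1: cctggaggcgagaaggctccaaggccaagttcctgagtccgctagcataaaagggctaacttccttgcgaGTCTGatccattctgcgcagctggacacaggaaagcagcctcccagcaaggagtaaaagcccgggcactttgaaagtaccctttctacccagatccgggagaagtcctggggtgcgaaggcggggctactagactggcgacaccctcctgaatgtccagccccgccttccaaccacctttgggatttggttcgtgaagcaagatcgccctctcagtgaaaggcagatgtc
Litaf: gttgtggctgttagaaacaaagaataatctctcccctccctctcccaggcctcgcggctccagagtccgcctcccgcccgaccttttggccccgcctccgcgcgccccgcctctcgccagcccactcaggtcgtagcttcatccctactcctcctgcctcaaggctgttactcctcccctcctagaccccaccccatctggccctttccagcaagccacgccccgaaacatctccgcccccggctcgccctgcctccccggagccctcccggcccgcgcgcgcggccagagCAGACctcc
Each window held 1 match. The windows of Ski and Tgfb1, also higher in the allograft, held 0. A box of 5 letters is common, and 49.6% of all 32851 promoter windows of this length held at least 1, so a match is a description of the window only.

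T cells of the same libraries (2 or more Cd3 UMIs, 375 allograft and 1163 spleen cells) give a second view of these genes, although their subsets were not matched. In them 17.2% of 11783 genes were higher and 14.5% lower in the allograft. The TGF-beta response list had a median log2 ratio of 2.15 in T cells (17 of 23 measured genes higher), the residency list 0.99 and the egress list -0.01. Pmepa1 in T cells stood at 588 against 37.9 CPM (allograft against spleen) and Smad7 at 488 against 183 CPM, the same direction as in NK cells. S1pr5 was near 0 in T cells of both libraries, at 0 against 3.24 CPM. Zeb2 had the opposite order, with 158 against 30.4 CPM in T cells, as did Cx3cr1 (19.5 against 5.80 CPM) and Klrg1, an inhibitory receptor of mature effector cells (log2 ratio 2.17 in T cells and -2.82 in NK cells). These differences between the cell types were not tested.

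**Figure D3:**
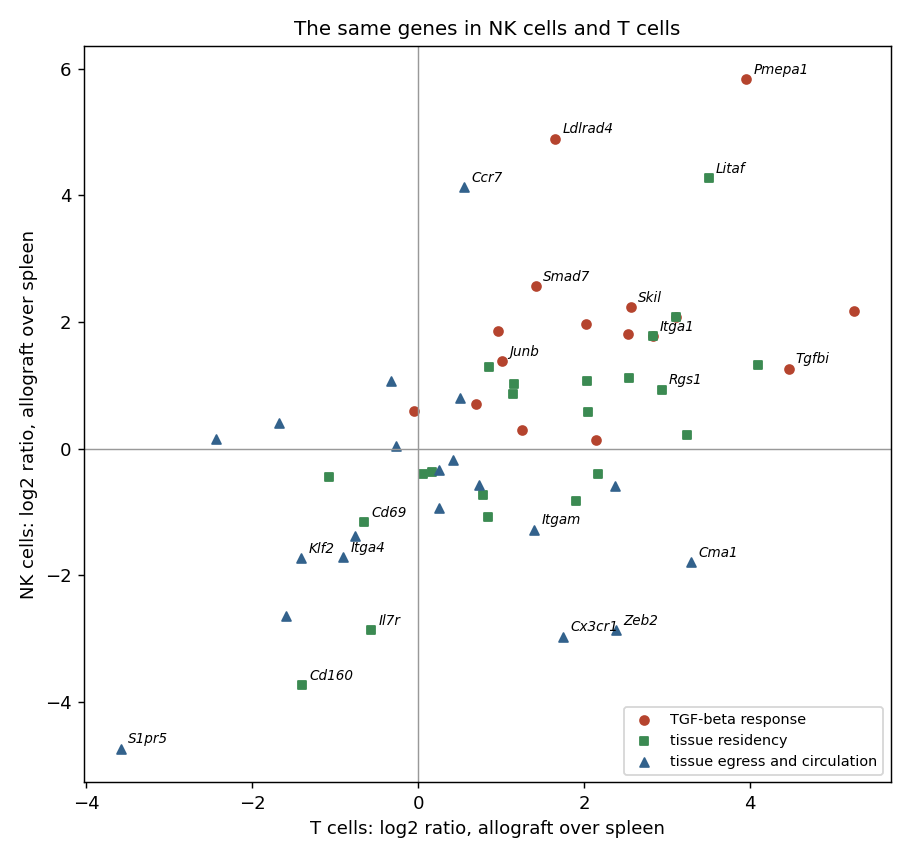
Log2 ratio of CPM, allograft over spleen, in T cells (horizontal) and NK cells (vertical) for measured TGF-beta response, residency and egress genes, 1 point per gene, with 1 egress gene not shown. Pmepa1 lies high on both axes and S1pr5 low on both (from 0 UMIs in allograft T cells), while Zeb2 and Cx3cr1 are higher in allograft T cells and lower in allograft NK cells. Points of genes with 0 UMIs in 1 library, such as Ldlrad4 in spleen NK cells, depend on the 0.5 UMI added to each sum.

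Transcription factors and maturation markers differed in both directions, with 8 of 22 higher and 5 lower (median 0.40). The median was 0.11 over the MHC class II-low cells, with 6 of 22 higher and 8 lower. Nfil3, needed for NK development, had 90 UMIs in 56 allograft cells, against 2 UMIs in 2 spleen cells (19.6-fold higher, 6.56 to 204). Irf8, a factor of NK proliferative responses, stood at 2063 CPM in allograft cells and 510.1 CPM in spleen cells (4.03-fold higher, 3.41 to 4.82), and Eomes at 596 against 210.0 CPM (2.82-fold higher, 2.16 to 3.78). Cd27, found on less mature NK cells, stood at 172 against 33.3 CPM (4.93-fold higher, 2.68 to 11.1), while Klrg1 and Itgam, found on mature ones, stood lower. Tbx21 (T-bet) stood at 84.9 against 137 CPM, within 2-fold, but at a log2 ratio of -1.03 over the MHC class II-low cells. Rora stood at 224 against 23.3 CPM (8.99-fold higher, 4.52 to 24.4).

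NK receptor genes were lower as a group, with 15 of 31 lower and 1 higher (median -0.94). Over the MHC class II-low cells 17 of 29 were lower and 0 higher (median -1.28). Klrk1 (NKG2D) stood at 406 CPM in allograft cells and 987 CPM in spleen cells (2.43-fold lower, 2.03 to 2.90), Klre1 at 276 against 630.1 CPM and Klrb1f at 27.1 against 253 CPM. Cd244, a receptor of the SLAM family, stood at 45.2 against 210.0 CPM (4.60-fold lower, 2.88 to 7.72), and Cd226, which binds nectin-like ligands, had 2 UMIs in the allograft against 16 in the spleen. The Ly49 genes Klra4, Klra7, Klra8 and Klra9, near-identical copies whose reads the counting may split, were within 2-fold (372 against 493 CPM, 246 against 440.1 CPM, 359 against 590.1 CPM and 119 against 207 CPM), though Klra7 and Klra9 were past it over the MHC class II-low cells (log2 ratios -1.03 and -1.28). Fcgr3, the Fc receptor chain CD16, was the exception above 2-fold at 121 against 53.3 CPM (2.22-fold higher, 1.30 to 4.19), though not over the MHC class II-low cells (log2 ratio 0.69). The rule selects on members of this receptor class and on their level, and the list was not independent of it. Per cell, 2 of 116 allograft cells lay above the spleen median, and 65 of 71 spleen cells above the allograft median.

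The killing machinery was similar for perforin and higher for some granule genes. Prf1 stood at 619.6 CPM in allograft cells and 663 CPM in spleen cells, within counting error of equal, and at a log2 ratio of -0.49 over the MHC class II-low cells. Gzmb stood at 932 against 393 CPM (2.36-fold higher, 1.94 to 2.92), but at a log2 ratio of 0.79 over the MHC class II-low cells. Ctla2a, an inhibitor of cathepsins, had 1093 UMIs in 101 allograft cells, against 75 UMIs in 27 spleen cells (7.85-fold higher, 6.25 to 10.1), the granule proteoglycan Srgn stood at 1698 against 653 CPM and the death ligand Fasl at 146 against 53.3 CPM. Ctsc, the protease that activates granzymes, was lower at 59.6 against 177 CPM (2.95-fold lower, 1.88 to 4.73), as was Unc13d, which primes granules for release, with 15 UMIs in the allograft against 18 in the spleen. In all, 9 of 19 measured genes were higher and 2 lower (median 0.33). The median was 0.24 over the MHC class II-low cells, with 7 of 19 higher and 2 lower.

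Gzmc and Gzme, granzymes of activated killer cells, were found in few allograft cells and in no spleen NK cell. Gzmc had 107 UMIs in 10 allograft cells, and Gzme had 69 UMIs, all in 1 allograft cell. The windows around their start sites are shown because the granzyme genes lie on the same chromosome and had UMIs in allograft NK cells only. They lie at chr14:56234608-56234907, minus strand for Gzmc and chr14:56120576-56120875, minus strand for Gzme (RefSeq, GRCm38.p6), and capitals mark bases that differ from, or are not aligned to, the other gene.
Gzmc: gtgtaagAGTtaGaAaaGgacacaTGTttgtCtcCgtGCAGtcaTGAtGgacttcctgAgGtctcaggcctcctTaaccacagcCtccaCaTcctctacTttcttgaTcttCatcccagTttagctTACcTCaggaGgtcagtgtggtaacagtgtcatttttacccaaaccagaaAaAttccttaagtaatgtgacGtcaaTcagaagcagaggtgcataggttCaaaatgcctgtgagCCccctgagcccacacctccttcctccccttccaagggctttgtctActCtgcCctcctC
Gzme: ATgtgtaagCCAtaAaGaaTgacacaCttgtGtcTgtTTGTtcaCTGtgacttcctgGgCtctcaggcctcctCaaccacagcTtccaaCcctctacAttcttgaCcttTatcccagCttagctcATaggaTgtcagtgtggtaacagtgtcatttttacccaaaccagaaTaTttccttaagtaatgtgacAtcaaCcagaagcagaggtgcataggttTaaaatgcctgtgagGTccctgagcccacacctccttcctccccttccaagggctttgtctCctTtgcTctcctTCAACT
The aligned windows were 82.7% identical. A 3' library reads the transcript ends, and over the last 300 bases of the transcripts Gzmc was 51.7% identical to Gzme and can be told from it. Gzme was 84.0% identical to Gzmd, 84.0% to Gzmf and 86.0% to Gzmg there, so its UMIs may belong in part to these copies.

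Among secreted factors, Ifng (interferon gamma) had 95 UMIs in 35 allograft cells, against 21 UMIs in 16 spleen cells (2.41-fold higher, 1.52 to 4.14), but a log2 ratio of only 0.70 over the MHC class II-low cells. The chemokine Ccl3 was lower, with 31 UMIs in 15 allograft cells, against 163 UMIs in 46 spleen cells (9.58-fold lower, 6.58 to 14.7), as were lymphotoxin beta (Ltb, 152 against 573 CPM) and Ccl5, the most abundant chemokine (9681 against 19663 CPM; 2.03-fold lower, 1.96 to 2.11). Ccl4 was within 2-fold at 307 against 460.1 CPM. Among MHC class II-low cells, Ltb stood at 133 against 155 CPM in those with a Gzma UMI. In those without one (17 allograft and 12 spleen cells) it stood at 222 against 1342 CPM. Over the 9 allograft and 18 spleen cells without T cell receptor, Cd8 or Cd4 UMIs the log2 ratio of Ccl3 turned to 0.37. Over the list 2 of 11 measured genes were higher and 3 lower (median -0.06), and the median was -0.35 over the MHC class II-low cells, with 1 of 10 higher and 3 lower. In T cells Ccl3 stood at 42.3 against 5.29 CPM, the opposite order.

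Receptors and feedback genes of cytokines that use JAK and STAT proteins were higher in part, with 9 of 24 higher and 3 lower (median 0.22). The median was 0.46 over the MHC class II-low cells, with 7 of 23 higher and 3 lower. Il2rb, the shared chain of the interleukin 2 and 15 receptors, had 1273 UMIs in 115 allograft cells, against 166 UMIs in 54 spleen cells, or 2299.6 CPM in allograft cells and 553 CPM in spleen cells (4.14-fold higher, 3.53 to 4.91). Ifngr1, a chain of the interferon gamma receptor, stood at 1899 against 353 CPM (5.35-fold higher, 4.40 to 6.62). The feedback inhibitor Socs3 had 121 UMIs in the allograft against 6 in the spleen (10.1-fold higher, 4.88 to 30.4), and its relative Cish 34 UMIs in the allograft against 2 in the spleen (7.48-fold higher, 2.36 to 79.1). Il2rg, the common gamma chain, did not differ beyond 2-fold (224 against 270.0 CPM), and neither did Il18r1 (161 against 177 CPM). Il27ra was lower, with 12 UMIs in the allograft against 27 in the spleen.

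Of the chemokine receptors, 5 of 9 measured were higher and 1 lower (median 1.06). Cxcr4, which holds cells where Cxcl12 is made, had 158 UMIs in 66 allograft cells, against 10 UMIs in 9 spleen cells (8.18-fold higher, 4.53 to 18.2). Ccr2, a receptor for inflammatory chemokines, stood at 222 against 127 CPM, and Cxcr3 at 36.1 against 66.7 CPM. The list's median was 0.58 over the MHC class II-low cells, with 4 of 9 higher and 2 lower, and it was -0.11 over the 15 allograft and 63 spleen cells without C1q, Lyz2 or Apoe UMIs, so its direction depends on which cells enter.

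The core of energy metabolism differed little between the libraries. Of 45 nuclear genes of oxidative phosphorylation 0 were higher and 1 (Ndufs7) lower, with a median of -0.22. Of 20 genes of the tricarboxylic acid cycle 0 were higher and 0 lower (median -0.24). Both medians lay near that of all genes (-0.13). For oxidative phosphorylation the median was -0.29 over the MHC class II-low cells, with 0 of 45 higher and 1 lower. For the tricarboxylic acid cycle it was -0.01 over the MHC class II-low cells, with 0 of 20 higher and 1 lower. Over all cells the individual ratios ran from -1.03 to 0.71 and from -0.96 to 0.70. Atp5a1, a subunit of ATP synthase, stood at 412 CPM in allograft cells and 250.0 CPM in spleen cells, and Cox4i1, of cytochrome c oxidase, at 820.1 against 837 CPM. Per cell, the oxidative phosphorylation list took a median of 1.22% of the UMIs of an allograft cell and 1.40% of those of a spleen cell. These small shifts still ordered most cells, since 24 of 116 allograft cells lay above the spleen median, and 59 of 71 spleen cells above the allograft median.

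Glycolysis was higher for a few of its genes. Of 18 measured genes 4 were higher and 2 lower, with a median of 0.35. The median came to 0.06 over the MHC class II-low cells, with 4 of 16 higher and 1 lower, and to -0.26 over the cells without C1q, Lyz2 or Apoe UMIs. Gapdh had 356 UMIs in 92 allograft cells, against 94 UMIs in 47 spleen cells (2.04-fold higher, 1.63 to 2.60). The glucose transporter Slc2a1 stood at 41.5 against 13.3 CPM (2.83-fold higher, 1.06 to 12.4), and Slc16a3, which exports lactate, had 17 UMIs in 12 allograft cells, against 0 UMIs in 0 spleen cells (at least 3.07-fold higher). Slc2a3, another glucose transporter, had the opposite order, 21.7 against 93.3 CPM (4.21-fold lower, 2.12 to 9.30). Ldha, Eno1 and Pgam1 stood close to equal (278 against 247 CPM, 155 against 160.0 CPM and 84.9 against 83.3 CPM). Per cell, 71 of 116 allograft cells lay above the spleen median, and 28 of 71 spleen cells above the allograft median, so the cells overlapped widely.

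Genes that respond to low oxygen included some of the clearest metabolic differences, with 5 of 11 measured higher and 0 lower (median 0.77). The median was 0.66 over the MHC class II-low cells, with 5 of 11 higher and 0 lower. Vegfa (chromosome 17, 46016993 to 46032369), the vascular growth factor, had 212 UMIs in 84 allograft cells, against 2 UMIs in 2 spleen cells, or 383 CPM in allograft cells and 6.67 CPM in spleen cells (46.1-fold higher, 15.7 to 477). It stood at 201 CPM in allograft macrophages, below the NK cells. Mxi1, an antagonist of Myc, had 43 UMIs in the allograft against 2 in the spleen (9.43-fold higher, 3.03 to 99.3), the oxygen sensor Egln3 13 UMIs in the allograft against 0 in the spleen (at least 2.35-fold higher), Ndrg1 21 UMIs in the allograft against 2 in the spleen (4.66-fold higher, 1.39 to 50.1), and Hif1a stood at 141 against 56.7 CPM (2.43-fold higher, 1.46 to 4.48). Bnip3l, Kdm3a and Egln1, also induced by low oxygen in many cells, stood at 164 against 170.0 CPM, 41.5 against 36.7 CPM and 39.7 against 70.0 CPM, within 2-fold.

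Of the list of nutrient uptake, polyamines and mTORC1, 8 of 23 measured genes were higher and 2 lower (median 0.56). The median was 0.54 over the MHC class II-low cells, with 9 of 23 higher and 1 lower. Odc1, the first enzyme of polyamine synthesis, had 332 UMIs in 67 allograft cells, against 16 UMIs in 12 spleen cells, or 599.7 CPM in allograft cells and 53.3 CPM in spleen cells (10.9-fold higher, 6.82 to 19.9). Slc3a2, the heavy chain of amino acid transporters, stood at 867 against 137 CPM (6.27-fold higher, 4.61 to 8.95), and Slc7a1, a carrier of cationic amino acids, at 143 against 13.3 CPM (9.57-fold higher, 4.02 to 40.2). Atf4, which answers amino acid shortage, stood at 419 against 107 CPM (3.88-fold higher, 2.71 to 5.88). Slc7a5, the light chain that pairs with Slc3a2, was low in both libraries at 27.1 against 13.3 CPM, and Myc had 6 UMIs in the allograft against 7 in the spleen. Per cell, the list took 0.333% of the UMIs of an allograft cell (range 0.0443% to 0.776%) and 0.121% of those of a spleen cell (range 0% to 0.550%). For these genes 112 of 116 allograft cells lay above the spleen median, and 1 of 71 spleen cells above the allograft median.

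Iron storage and redox genes were higher in part, with 5 of 16 higher and 1 lower (median 0.70, and 0.68 over the MHC class II-low cells, with 5 of 15 higher and 1 lower). Fth1, the ferritin heavy chain, stood at 7307 CPM in allograft cells and 1897 CPM in spleen cells (3.85-fold higher, 3.53 to 4.21), and the peroxiredoxin Prdx6 at 746 against 133 CPM (5.53-fold higher, 4.04 to 7.95). Gpx1, a glutathione peroxidase, stood at 84.9 against 337 CPM, the opposite order. In lipid metabolism, Scd2, a fatty acid desaturase, had 154 UMIs in 68 allograft cells, against 10 UMIs in 7 spleen cells (7.97-fold higher, 4.42 to 17.7), whereas the enzymes of fatty acid oxidation Hadha and Hadhb stood at 79.5 against 80.0 CPM and 103 against 107 CPM. Over the list of fatty acid use 2 of 15 were higher and 1 lower (median -0.02, and 0.05 over the MHC class II-low cells, with 2 of 15 higher and 1 lower). Over that of cholesterol synthesis 2 of 11 were higher and 2 lower (median 0.25, and 0.50 over the MHC class II-low cells, with 2 of 9 higher and 1 lower).

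**Figure D4:**
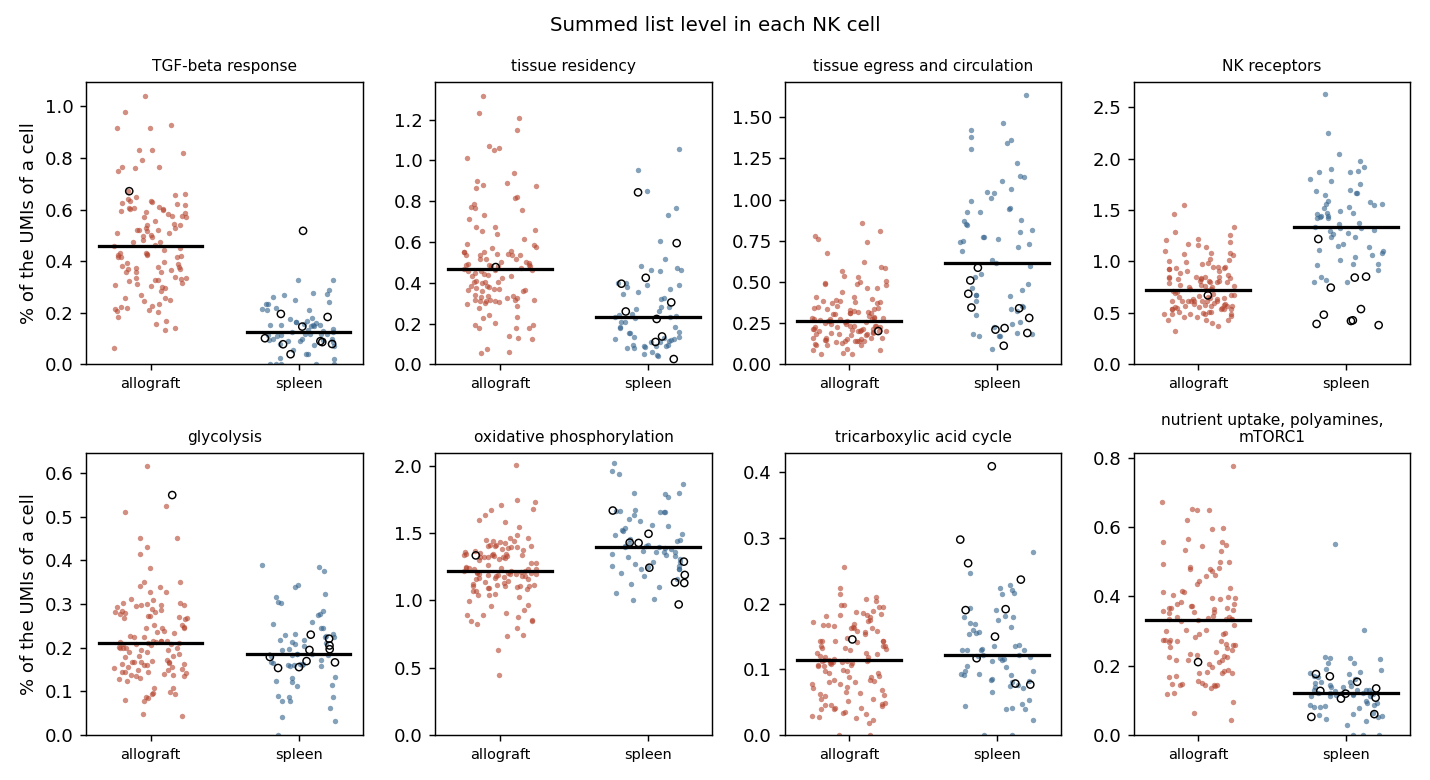
Summed UMIs of each list as a percentage of the UMIs of each NK cell, with 1 point per cell (116 allograft, 71 spleen), a line at the median and open circles for cells with 20 or more MHC class II UMIs. For the TGF-beta response and nutrient lists the ranges overlap, but most cells lie beyond the median of the other library. Glycolysis and the tricarboxylic acid cycle overlap widely. Cells of 1 library are not replicates of its condition.

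**Figure D5:**
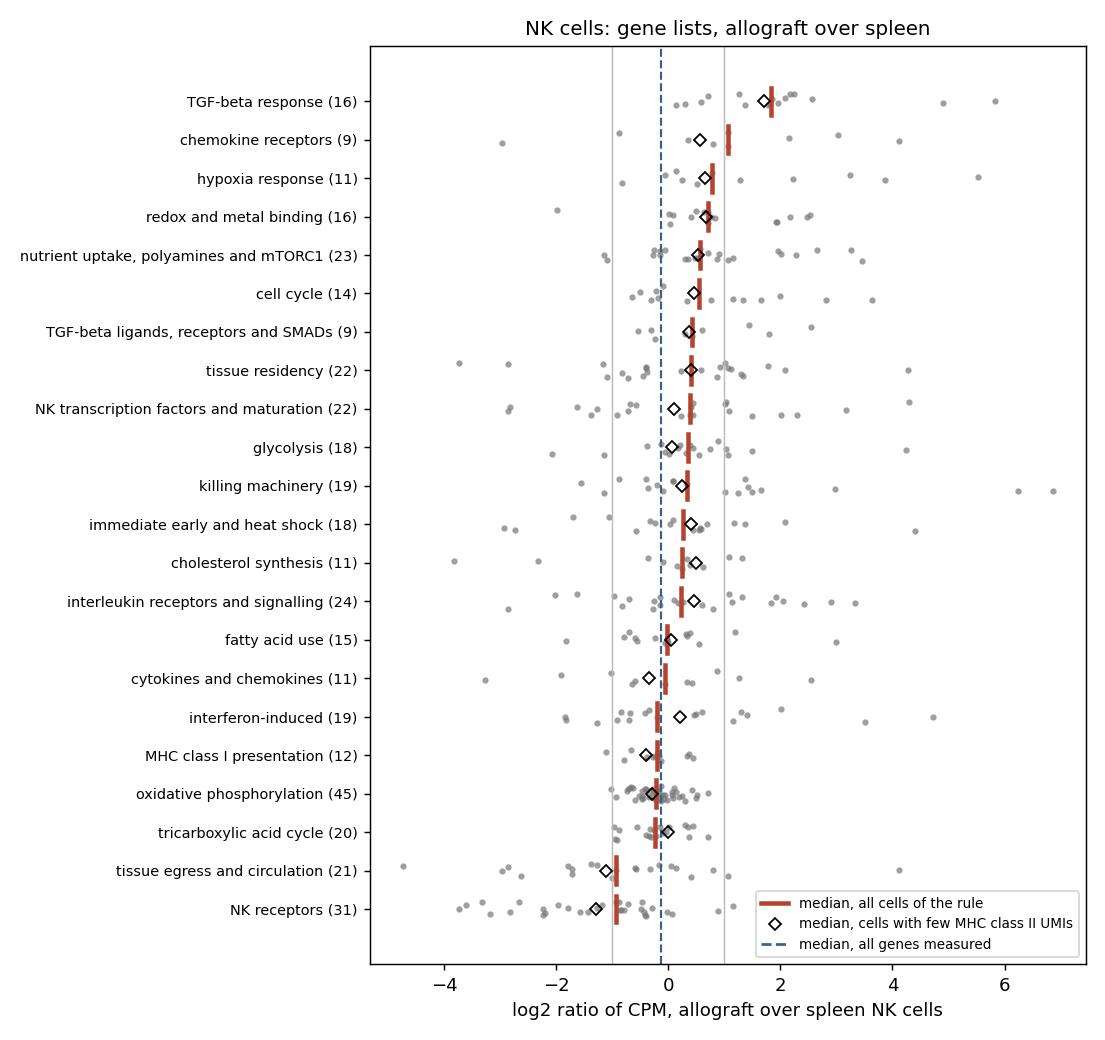
Log2 ratio of CPM, allograft over spleen, for each measured gene (grey points) of the lists, with the number of genes measured in brackets, the median over all cells of the rule (line) and over MHC class II-low cells (diamond). Of the lists plotted, TGF-beta response has the highest median (1.83) and the NK receptor and egress lists the lowest (-0.94 each), and the dashed line marks the median of all genes (-0.13).

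Across all genes, those with the highest ratios among 442 that passed the limits for naming (50 CPM and 30 UMIs in the higher library, detected in 10% of its cells) had few or no spleen UMIs. Dgat1 (chromosome 15, 76502015 to 76511953), which makes triglycerides, had 367 UMIs in 95 allograft cells, against 4 UMIs in 4 spleen cells (44.3-fold higher, 19.3 to 183). Sult2b1 (chromosome 7, 45729983 to 45784669), a sulfotransferase of sterols, had 99 UMIs in 50 allograft cells, against 0 UMIs in 0 spleen cells (at least 17.9-fold higher, 95% lower limit 14.3). Both were lower in allograft macrophages, at 40.2 and 1.14 CPM. Rgs16, a regulator of G protein signals, had 80 UMIs in 33 allograft cells, against 0 UMIs in 0 spleen cells, and Icos, a costimulatory receptor, 41 UMIs in 28 allograft cells, against 0 UMIs in 0 spleen cells. Ramp3, a partner of peptide hormone receptors, had 48 UMIs in 17 allograft cells, against 0 UMIs in 0 spleen cells.

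Smox, an oxidase of the polyamine spermine, had 47 UMIs in 33 allograft cells, against 0 UMIs in 0 spleen cells (at least 8.49-fold higher), with 85.8 CPM in allograft macrophages beside 84.9 CPM in allograft NK cells. The list of highest ratios also held Tmprss6, a membrane serine protease, with 43 UMIs in 31 allograft cells, against 0 UMIs in 0 spleen cells (at least 7.77-fold higher). Pde4d, a phosphodiesterase that breaks down cyclic AMP, had 37 UMIs in 30 allograft cells, against 0 UMIs in 0 spleen cells (at least 6.68-fold higher). The others were Spsb1, Tmcc3, Bahcc1, Ppp1r3b and Cxcl2, with 35 to 45 UMIs in the allograft and 0 in the spleen. Of these, Cxcl2 stood at 81.3 CPM in allograft NK cells and 2335 CPM in allograft macrophages, or 3.48% of the macrophage level, with 27 of its 45 UMIs in 1 cell. Its source was not tested.

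The lowest ratios among 228 genes that passed the same limits were in good part those of the MHC class II-high spleen cells. Cd79a, a chain of the B cell receptor, had 0 UMIs in 0 allograft cells, against 66 UMIs in 10 spleen cells, of which 7 UMIs remained in the MHC class II-low spleen cells. Bcl11a, Ciita, Gm2a, H2-Oa and Ly86 kept 1, 3, 5, 3 and 4 spleen UMIs there, of 45, 37, 78, 34 and 30. In contrast, S1pr5, Cd160, Ccl3, Klrb1f, Clec2d and Fos were lower in both sets of cells. Clec2d, a ligand of Klrb1 receptors, stood at 47.0 CPM in allograft cells and 387 CPM in spleen cells (8.11-fold lower, 5.35 to 13.1), with 26 against 91 UMIs in the MHC class II-low cells. Fos, an immediate early gene, stood at 47.0 against 363 CPM (7.63-fold lower, 5.01 to 12.4).

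Signs of handling differed in both directions. Over 18 immediate early and heat shock genes 4 were higher and 4 lower (median 0.26, and 0.40 over the MHC class II-low cells, with 4 of 18 higher and 3 lower). Hspa1b, a heat shock chaperone, was detected in 1 allograft and 21 spleen cells, while Atf3 had 27 UMIs in the allograft against 3 in the spleen, Ier3 19 UMIs in the allograft against 0 in the spleen and Junb, also a member of the TGF-beta response list, was higher as given above. In T cells Hspa1b stood at 6.67 against 149 CPM, the same order as in NK cells. The part of these genes in the other results was not tested. For genes that interferons induce the median was -0.19, with 6 of 19 above 2-fold and 3 below, but the sign turned to 0.21 over the MHC class II-low cells, with 6 of 17 higher and 2 lower. For the MHC class I presentation list the median was -0.21, with 0 of 12 higher and 1 lower, and -0.39 over the MHC class II-low cells, with 0 of 12 higher and 1 lower. Of the cell cycle list 6 of 14 measured genes were higher and 0 lower (median 0.55), and the median was 0.46 over the MHC class II-low cells, with 5 of 14 higher and 0 lower. Of its members, Mki67 and Top2a were seen in 4 and 7 allograft cells and in 3 and 2 spleen cells, while the inhibitor Cdkn1a had 80 UMIs in 43 allograft cells, against 3 UMIs in 3 spleen cells (12.5-fold higher, 4.77 to 71.5).

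The cells that met the rule were not uniform, and a split by Gzma, made after seeing the data and over the MHC class II-low cells, is given as a description. Cells without a Gzma UMI numbered 17 of 115 in the allograft and 12 of 61 in the spleen, although they were not shallower (medians of 5566 UMIs without Gzma and 3933 with it in the allograft, 4529 and 3073 in the spleen). In both libraries the cells without Gzma were lower in Eomes, Itgam, Klrg1 and Zeb2. Eomes stood at 86.7 CPM without Gzma and 725 CPM with it in the allograft, and 36.8 CPM without and 336 CPM with it in the spleen. Itgam and Klrg1 were at 0 in cells without Gzma of both libraries, and Zeb2 stood at 19.3 CPM without Gzma and 114 CPM with it in the allograft, and 221 CPM without and 1002 CPM with it in the spleen. Tbx21 had no common order, at 106 CPM without Gzma and 82.3 CPM with it in the allograft, and 73.5 CPM without and 213 CPM with it in the spleen.

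The allograft cells without Gzma carried most of the Gzmc (101 of 107 UMIs) and were higher than those with Gzma in Rora (626 against 130.3 CPM), Cxcr6 (96.3 against 6.86 CPM), Tmem176b (202 against 2.29 CPM), Kit (222 against 61.7 CPM) and Xcl1 (1483 against 661 CPM). The spleen cells without Gzma were higher in Cd160 (754 against 90.5 CPM), Il7r (368 against 12.9 CPM), Ltb (1342 against 155 CPM), Cd7 (2353 against 394 CPM) and Xcl1 (1122 against 317 CPM). Apart from Gzmc, at 0 in the spleen, these genes had the same order in both libraries, several on few UMIs. Spleen cells had Kit at 257 against 12.9 CPM, Tmem176b at 147 against 19.4 CPM, Rora at 55.2 against 25.9 CPM and Cxcr6 at 55.2 against 0 CPM. Allograft cells had Cd160 at 38.5 against 11.4 CPM, Il7r at 67.4 against 6.86 CPM, Ltb at 222 against 133 CPM and Cd7 at 510 against 226 CPM. Cxcr6, Kit, Il7r and Xcl1 are known from innate lymphocytes of type 1, which the rule does not set apart from NK cells. Pmepa1 did not follow this split. It stood at 568 CPM without Gzma and 697 CPM with it in the allograft, and 0 CPM without and 0 CPM with it in the spleen, and Smad7 at 626 CPM without Gzma and 669.9 CPM with it in the allograft, and 91.9 CPM without and 90.5 CPM with it in the spleen.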

How the data were processed

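The deposited values are raw UMI counts per gene and barcode, in 1 matrix per source. The software was Cell Ranger (3.1.0, per the file headers), with build mm10 per the submitters' processing notes, and the settings the authors used are not given in the sources used here. Cells needed at least 500 genes and at most 20% mitochondrial UMIs. The cells, gene lists and comparisons were chosen with earlier results of these data known. UMIs were summed over the cells of a library, and the ratio of CPM was taken with 0.5 UMI added to each sum. Ratios carry 95% intervals from the binomial distribution of one sum given both, and shares carry Clopper-Pearson and CPM exact Poisson intervals. A fold against 0 UMIs, given as "at least", was computed against 3 UMIs per library. It leaves out counting error and can exceed the 95% lower limit. Without replicate libraries no test was made. Genes were named as the 15 highest and 15 lowest ratios past the limits given, leaving out the 5 genes of the rule, mitochondrial, ribosomal, immunoglobulin, T cell receptor and unnamed genes, plus any member of 33 lists. Positions come from GENCODE release M21, which held 30934 of 31053 identifiers. On sums simulated from Poisson distributions, which the intervals assume, they held the true ratio for 97.5% of 200 changed genes among 4651. UMIs clumped in single cells were not simulated, so this checks the calculation only. Scrublet, tried as an alternative, marked 0.924% of allograft and 0.131% of spleen cells, and doublets were left in. Some list members enter the counts but are not reported here by name. Tools were Python 3.11.15, numpy 2.4.6, scipy 1.17.1, pandas 2.3.3, scanpy 1.11.5 and matplotlib 3.10.9.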

Additional observations from a re-analysis of the deposited data

How the results depend on the processing

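The medians of the TGF-beta response (1.70 to 2.35), egress (-1.35 to -0.71), NK receptor (-1.34 to -0.35), oxidative phosphorylation (-0.45 to -0.11) and nutrient (0.47 to 1.36) lists kept their sign under all 15 alternatives run, the exclusion of MHC class II-high cells included. So did those of TGF-beta ligands, receptors and SMADs (0.32 to 2.47), interleukin receptors (0.17 to 0.46), killing machinery (0.07 to 1.24), hypoxia response (0.02 to 0.88) and the tricarboxylic acid cycle (-0.35 to -0.01). Relative to the median of all genes, that of the tricarboxylic acid cycle changed sides. It was -0.24 against -0.13 over all cells and -0.01 against -0.12 over the MHC class II-low cells. The medians of the other lists took both signs, namely MHC class I presentation (-0.39 to 0.06), NK transcription factors and maturation (-0.51 to 0.50), cell cycle (-0.17 to 0.73), chemokine receptors (-0.11 to 4.42), cholesterol synthesis (-0.43 to 2.04), cytokines and chemokines (-0.58 to 2.29), fatty acid use (-0.31 to 1.16), glycolysis (-0.26 to 0.46), immediate early and heat shock (-0.07 to 0.60), interferon-induced (-0.89 to 0.21), redox and metal binding (-0.05 to 0.81) and tissue residency (-0.08 to 1.35). Leaving out cells with T cell receptor, Cd8 or Cd4 UMIs left 9 allograft and 18 spleen cells. The share of NK cells then came to 0.231% in the allograft and 0.393% in the spleen, the opposite order, with 328 genes higher and 444 lower, and log2 ratios of 0.37 for Ccl3 and -0.77 for Rgs2, both reversed. Leaving out cells with C1q, Lyz2 or Apoe UMIs left 15 and 63 cells, an allograft share of 0.385%, 556 genes higher and a chemokine receptor median of -0.11. Both settings leave few cells, and the cause of the reversals was not tested. The stricter cell filter gave an allograft share of 4.02%. Thinning to 1500 UMIs gave 610 for genes called lower, a minimum of 50 UMIs gave 351 higher and 245 lower, and a minimum of 1 gave 1619 and 3177, since fewer or more sparse genes were counted. Under scaling by totals, measured genes with UMIs in both libraries had a median log2 ratio of -0.11. Median-of-ratios scaling takes out this shift, so it raised log2 ratios by the same amount. No paired analysis was possible because the 4 samples of a source are pooled in 1 matrix, and leaving out a sample could not be run for the same reason. With 71 spleen cells, 3 UMIs correspond to 10.0 CPM, so differences of genes near that level in both libraries were not detectable at this depth. Fewer than 20 cells stand behind the values of cells without Gzma.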
